A study of Sus scrofa with 150 samples.

Results

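Oxidative phosphorylation was followed across 150 pig livers through 83 probe sets of 65 genes, out of 23999 probe sets on the array that are not controls. The members were taken by symbol from the array annotation: every probe set whose single gene symbol begins with NDUF, SDHA, SDHB, SDHC, SDHD, UQCR or ATP5, begins with COX and a digit from 4 to 8, or is CYC1 or CYCS. Complex I had 40 probe sets for 33 genes, complex II had 6 for 4 genes, complex III had 2 for 2 genes, complex IV had 8 for 7 genes and complex V had 17 for 13 genes. A further 9 probe sets for 5 genes (NDUFAF1, NDUFAF2, NDUFAF3, SDHAF2 and ATP5S) carry a member-like symbol but belong to assembly or accessory factors, and cytochrome c (CYCS) had 1. The choice used no measured value. Another 4 probe sets carrying several symbols, a member symbol among them, were left out. CYC1, the core proteins UQCRC1 and UQCRC2, and COX4I1 and COX5A of complex IV were not analysed here, so complex III rests on 2 small subunits only.

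Each liver came from a different commercial crossbred pig of the type Pix(DLxDE) and was taken at slaughter, without treatment and without a control group. Total RNA of each liver was hybridised to one Affymetrix porcine array with a single biotin label. Fat area over the loin muscle ran from 8.1 to 26.7 cm2 (median 14.65 cm2), and drip loss, the percentage of weight that a loin sample loses on hanging, ran from 1.45% to 10.82% (median 5.59%). The labels used here give neither sex, family, slaughter day nor array batch, and the mean of 2 Y-linked probe sets, which ran from 4.09 to 6.11, served as a covariate where sex could matter. All 150 pigs form 1 group, so every comparison is a slope or a correlation across pigs, its p-value measures the spread between these pigs, and the number of arrays limits its precision.

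The respiratory chain passes electrons from NADH (through complex I) and from succinate (through complex II) by way of ubiquinone, complex III and cytochrome c to complex IV, which hands them to oxygen. Complexes I, III and IV pump protons across the inner mitochondrial membrane, and complex V, the ATP synthase, uses their return to make ATP. In liver this ATP pays for glucose and urea synthesis, and the subunits measured here are all encoded in the nucleus, imported and joined with partners made inside the mitochondrion.

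The tissue label was borne out by the 7 hepatocyte genes listed, ALB, APOA1, TTR, TF, SERPINA1, FGB and CYP2E1, whose mean levels lay between 13.33 and 13.93. Levels are log2 values of the deposited table, whose lowest value is 4.09. The arrays differed in several measures. The difference between the 3 prime and 5 prime beta-actin control probe sets ran from 1.86 to 3.97 log2 units. The array median ran from 5.79 to 6.09. The median correlation of an array with the others ran from 0.928 to 0.977, and 13 arrays lay over 3 scaled median absolute deviations below the middle. In bulk liver, fewer cells of a type and less RNA per cell cannot be told apart.

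The subunit transcripts were bright, and the brightest probe set of each gene was mostly steady. Of the 83 member probe sets, 66 (79.5%) were among the 6000 brightest on the array, those with a mean level of at least 7.191. The SD across pigs of the brightest probe set of each gene had a median of 0.232. It was 0.312 for the 6000 brightest probe sets and 0.259 for all, neither reduced to 1 probe set per gene. The members' median leaves out their dimmer probe sets, among them those of NDUFS6 (SD 1.064) and SDHB (SD 0.62). In 6 member probe sets at least 1 pig stood at the lowest value of the table.

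In complex I the steadiest member was NDUFB4, an accessory subunit of the membrane arm, with a lowest, median and highest level of 10.39, 10.96 and 11.37. The least steady was the dimmer probe set of NDUFS6, described below. In complex II the brighter probe set of SDHA, the flavoprotein that oxidises succinate, ran from 10.22 through 10.91 to 11.42. The dimmer probe set of SDHB, the iron-sulfur subunit, ran from 5.04 through 6.12 to 8.80, with an SD of 0.62. SDHC and SDHD, the membrane anchors of the same complex, ran from 9.34 to 11.04 and from 10.48 to 11.72.

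Of the small subunits of complex III, UQCR10 ran from 10.05 through 10.61 to 11.34 and UQCRB from 9.10 through 10.13 to 10.72. In complex V, ATP5E, the epsilon subunit of the central stalk, was the steadiest member (12.19, 12.55 and 12.96; SD 0.151). ATP5G1, a gene for the c subunit of the rotor ring, had the largest SD in that complex (0.342), with levels of 9.01, 9.92 and 10.84. CYCS, the electron carrier between complexes III and IV, varied more than the brightest probe set of every other gene but NDUFA1: its lowest, median and highest levels were 7.58, 8.81 and 10.05 (SD 0.521).

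Complex IV has tissue isoforms. COX7A1, the form known from heart and skeletal muscle, was well above the lowest table value in every liver, at 9.13, 10.32 and 11.04, and COX7A2, the widely expressed form, at 10.06, 10.79 and 11.23. Levels of different probe sets cannot be set against each other. The 6 measured skeletal muscle markers of 9 listed were low in the same livers, with mean levels from 4.16 to 5.68: CKM at 4.44 to 5.44, TNNT3 at 4.18 to 5.42, TNNC2 at 4.09 to 5.70 and MYH7 at 4.57 to 6.41. Their summed log2 level ran from 27.11 to 30.74, and 3 of the 6 had a pig at the lowest table value. COX8H, the heart form of another subunit, was dim throughout, at 5.19, 5.74 and 6.12. COX6A1, the form of its subunit found in liver, stood at 10.67, 11.64 and 12.06. The other members of the isoform pairs, COX4I1 and COX4I2, COX6A2, COX6B1 and COX6B2, COX8A and COX8C, and NDUFA4L2, were not analysed here.

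No oxidative phosphorylation transcript passed the test on the fatness of the pig. In limma's fit across all probe sets, 0 of the 83 member probe sets passed an adjusted p of 0.05 for fat area, where 0.125% of all probe sets did, and 3 members had an unadjusted p under 0.05 (3.61%, against 7.08% of all). The median member slope was 0.0063 log2 units per SD of fat area (3.25 cm2), beside 0.00025 for all probe sets. The lowest adjusted p belonged to CYCS, whose level averaged 8.70 ± 0.50 (SD, n = 30) in the 30 pigs with the largest fat area and 8.86 ± 0.55 (SD, n = 30) in the 30 with the smallest, ranges that overlap widely. Its slope was -0.09 (SE 0.042), with a limma adjusted p of 0.626.

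The members nearest to a positive slope on fat area were a dim probe set of ATP5L, the g subunit of ATP synthase, with a slope of 0.05 (SE 0.026), COX7A1 with 0.06 (SE 0.027), and COX6C of complex IV. On the negative side NDUFA7 of complex I and ATP5J, the F6 subunit of the ATP synthase stalk, followed CYCS. Each had a limma adjusted p above 0.6. For 76 of the 83 members the 95% interval lay within 0.1 log2 units per SD of fat area on either side of 0. The widest bound, for NDUFA1, was 0.195. The limit of 0.1 is wider than the 5th to 95th percentile of all slopes (-0.045 to 0.045). The same count over all probe sets was not taken, so the 76 do not set the members apart. Fat area was correlated with the Y-linked mean at r = 0.364 (rho = 0.366, n = 150, a description). With that mean as a covariate 0 of 83 members were called by limma and 6 had an unadjusted p under 0.05, where 1 of all 23999 probe sets (0.00417%) was called; CYCS then had a slope of -0.105 (limma adjusted p 0.575). The median slopes of complexes I to V without it were 0.0043, 0.018, 0.0089, 0.016 and 0.0079.

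Drip loss likewise gave 0 of 83 members past the adjusted threshold, where the background was 0.0% of all probe sets by the same limma fit. Here 14 members (16.9%) had an unadjusted p under 0.05, beside 2638 of 23999 probe sets in all and 1069 (17.8%) of the 6000 brightest, and 27 of 83 slopes were positive, beside 13560 of 23999. The lowest adjusted p was that of NDUFAF3, an assembly factor of complex I, at 8.84 ± 0.26 (SD, n = 30) in the 30 pigs with the highest drip loss and 9.04 ± 0.27 (SD, n = 30) in the 30 with the lowest. Its slope was -0.07 (SE 0.026; limma adjusted p 0.332).

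Behind NDUFAF3 came the membrane-arm subunit NDUFB8 and UQCR10 of complex III, both with a slope of -0.05 and limma adjusted p of 0.34 and 0.343. On the positive side stood NDUFS1, the largest iron-sulfur subunit of complex I (0.06, SE 0.024), ATP5S (0.06, SE 0.024) and NDUFAF2 (0.03, SE 0.015), none of them past the threshold. In complex I 8 of 40 slopes were positive, and its median was -0.025 per SD of drip loss (2.12 percentage points). The 95% interval stayed within 0.1 for 76 of the 83 members, a limit wider than the 5th to 95th percentile of all slopes (-0.048 to 0.059). Drip loss itself was correlated at r = 0.247 with the actin difference, 0.134 with the GAPDH difference and 0.131 with the array median. With the array correlation it had r = -0.0076, and with the number in the sample title -0.26 (n = 150). With the 4 array measures as covariates there were still 0 calls for either trait.

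**Figure D1:**
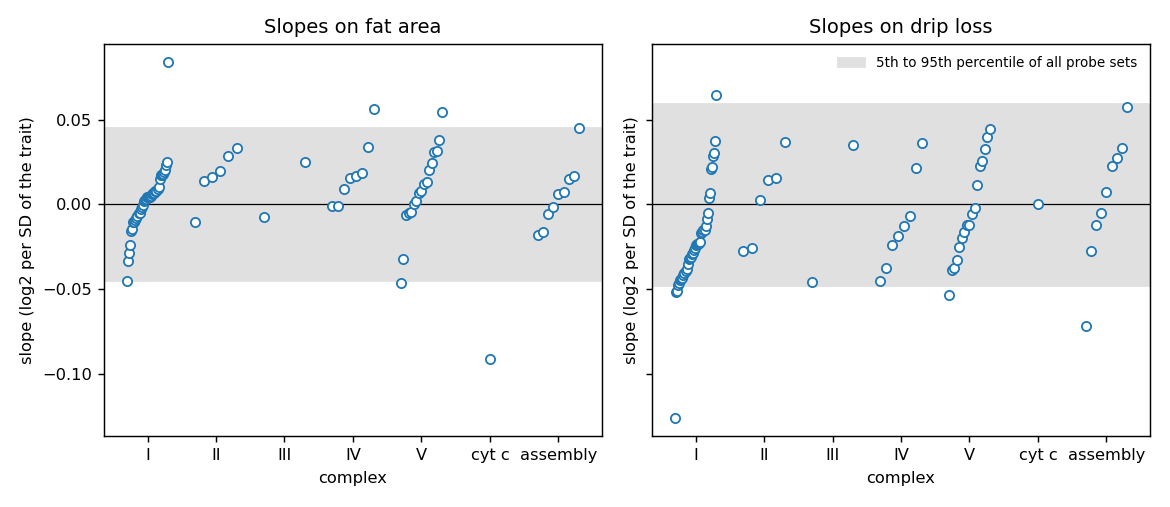
Slope of each member probe set on fat area (left) and drip loss (right), in log2 units per SD of the trait, by complex over 150 livers. Open points did not pass an adjusted p of 0.05 and no filled point appears. The grey band holds the 5th to 95th percentile of all 23999 probe sets, -0.045 to 0.045 for fat area and -0.048 to 0.059 for drip loss, and most members lie inside it.

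Many members moved with measures taken from the arrays, some up and some down. Against the array median, the middle level of all probe sets on an array, 67 of 83 members were called by limma, 18 higher and 49 lower on arrays with a higher median. The background was 59.1% of all probe sets, 36.7% on the higher and 22.5% on the lower side. For the 6000 brightest it was 71.5%, split into 37.1% and 34.4%. Most of the members' calls were on the lower side, where most calls of all probe sets were on the higher. The array median was added as a measure after the data were seen, and a slope is per SD of it, 0.0657 log2 units. It was correlated at r = 0.008 with the actin difference and 0.083 with that of a second pair of actin controls. With the array correlation it had r = -0.221 (n = 150). Whether the array median reflects array quality was not tested.

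Each complex held calls of both directions. Complex I had 5 members higher and 29 lower out of 40, complex II had 2 and 3 of 6, complex III 1 and 1 of 2, complex IV 1 and 5 of 8, and complex V 5 and 10 of 17. Among the assembly and accessory factors 3 were higher and 1 lower. The 66 members among the 6000 brightest held 10 calls on the higher and 46 on the lower side, and the 17 dimmer members 8 and 3. Across the array, calls on the lower side were likewise more frequent among the 6000 brightest (34.4%) than among all probe sets (22.5%). The share among the dimmer probe sets alone was not taken.

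NDUFA5, an accessory subunit of the arm of complex I that reaches into the matrix, had the lowest adjusted p. Its levels were 5.24, 6.41 and 7.72 at the lowest, median and highest pig. It averaged 6.99 ± 0.31 (SD, n = 30) on the 30 arrays of highest median and 5.96 ± 0.27 (SD, n = 30) on the 30 of lowest, 2.05-fold apart, with a slope of 0.36 (SE 0.02, limma adjusted p 6.3e-38). The dimmer SDHB probe set rose most, 2.42-fold between the same sets of arrays (slope 0.46), whereas the brighter SDHB probe set rose 1.11-fold (slope 0.04, limma adjusted p 0.0236). The 2 probe sets of ATP5S, a coupling factor of ATP synthase, rose 1.77-fold and 1.43-fold, and ATP5J of the peripheral stalk 1.49-fold. NDUFS1 (0.16), both NDUFB3 probe sets (0.16 and 0.15), CYCS (0.12), UQCRB (0.11), ATP5F1 (0.11) and NDUFC1 (0.11) rose as well.

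On the other side NDUFS3, a core subunit near the ubiquinone site of complex I, stood at 9.24, 10.14 and 10.69. It averaged 9.84 ± 0.21 (SD, n = 30) on the arrays of highest median and 10.36 ± 0.16 (SD, n = 30) on those of lowest, 1.44-fold lower, with a slope of -0.20 (limma adjusted p 1.97e-24). NDUFB11 of the membrane arm fell 1.42-fold, ATP5G1 1.42-fold, NDUFA9 1.41-fold and COX7A1 1.41-fold. The second NDUFS3 probe set fell 1.38-fold. In complex II SDHA (1.22-fold and 1.25-fold) and SDHC (1.21-fold) fell while SDHB rose, and in complex III UQCR10 fell 1.25-fold while UQCRB rose 1.25-fold. ATP5A1, the alpha subunit of ATP synthase, and SDHD did not pass the test, with slopes of -0.02 and 0.01.

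Probe sets of the same gene did not always share a direction. Of the 15 genes with several probe sets, ATP5I (slopes -0.13 and 0.05) and ATP5L (-0.08 and 0.08) had calls on both sides of 0. In each the brighter probe set fell and a dimmer one rose. Quantile normalization, which gives all arrays the same distribution (array medians lay within 0.15 log2 units of the middle array), left 63 members called in both, 0 of them with a changed direction.

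Some markers of other cells were called on the array median. Beside them stand 36.7% of all probe sets called higher and 22.5% lower, and 37.1% and 34.4% of the 6000 brightest. HBB, the beta globin of red blood cells, ran from 4.59 through 5.93 to 7.41 and had a slope of 0.45 (limma adjusted p 1.58e-42). Of the 3 measured red cell genes of 6 listed 1 was higher and 1, AHSP (slope -0.18), was lower. Their summed log2 level ran from 18.12 to 26.23. The macrophage gene CD163 had a slope of 0.23, while CD14 (-0.1) and C1QA (-0.11) fell. Of 4 measured macrophage genes of 7 listed, summed at 32.97 to 38.51, 1 was higher and 2 lower. The 5 endothelial genes (35.51 to 39.71 in sum) held 2 higher and 2 lower, the 3 measured adipocyte genes of 5 (14.57 to 18.21) 1 higher, and the 7 hepatocyte genes (94.13 to 96.19) 2 higher and 1 lower. Of the 6 skeletal muscle genes 0 were called by limma and 1 had an unadjusted p under 0.05. Their part in the members' slopes was not tested.

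**Figure D2:**
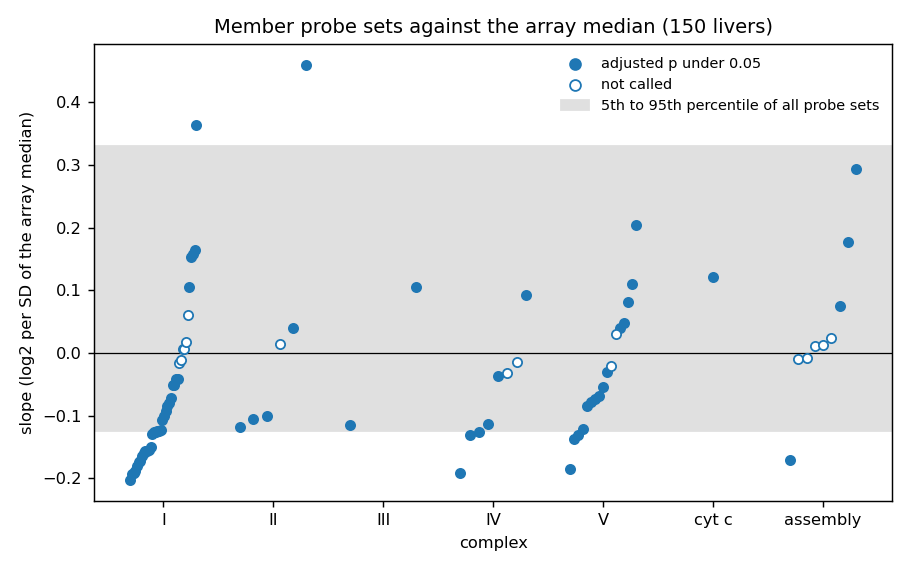
Slope of each member probe set on the array median, in log2 units per SD, by complex over 150 livers. Filled points passed an adjusted p of 0.05, open ones did not, and the grey band holds the 5th to 95th percentile of all probe sets (-0.125 to 0.331). Most members of complexes I, IV and V lie below 0, while each of complexes I, II, III, IV and V has at least 1 member above it.

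**Figure D3:**
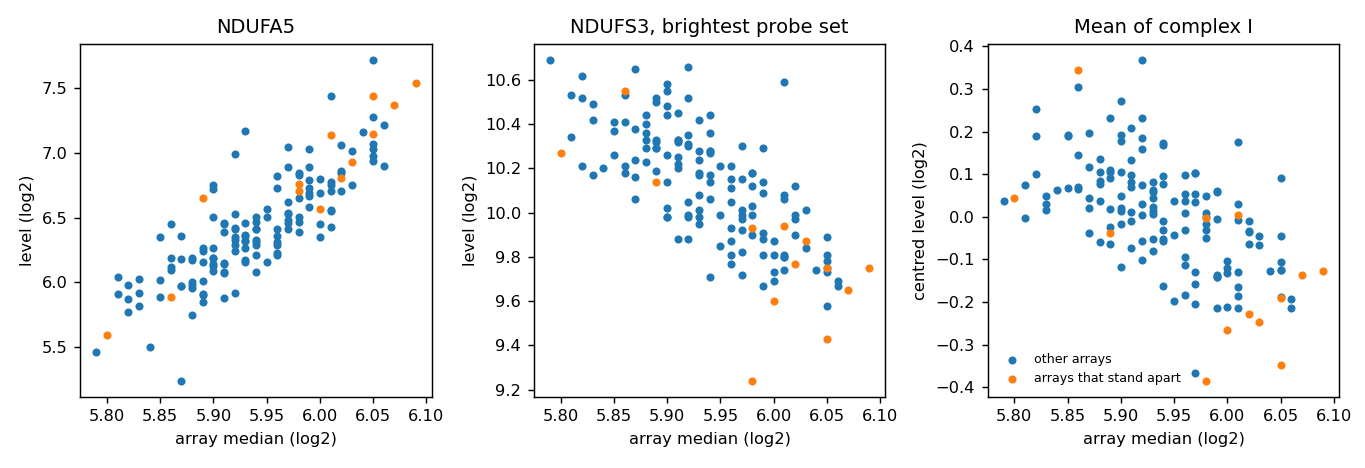
Level of NDUFA5 (left), of the brightest NDUFS3 probe set (middle) and mean of the centred complex I genes (right) against the array median, in log2 units, with 1 point for each liver. Orange points are the 13 arrays that stand apart from the rest. NDUFA5 rises and NDUFS3 falls across the whole range of array medians, with the orange points among the others in the first panel.

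The difference between 3 prime and 5 prime GAPDH controls, also added after the data were seen, called 66 members (15 higher, 51 lower), where 53.4% of all probe sets were called, 29.3% higher and 24.1% lower. Among the 6000 brightest the share was 63.4%, with 28% higher and 35.4% lower. It was correlated with the array median at r = 0.517, so calls on these measures are not independent. The 60 members called on both, all 60 in the same direction, were not set against the same count over all probe sets. With the array median as a covariate 40 members were called, 4 higher and 36 lower, beside 35% of all probe sets (16.8% and 18.2%) and 40.5% of the 6000 brightest (16% and 24.6%). The steepest falls were those of the NDUFS3 probe set of middle brightness, the brighter NDUFA1 probe set, the dimmer SDHA probe set, NDUFA11 and NDUFA7, all but SDHA subunits of complex I. The steepest rises were those of the dimmer SDHB and ATP5S probe sets, NDUFA5, ATP5J and NDUFB3.

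The actin difference reached far fewer members. It called 9 of 83, 1 higher and 8 lower, a share of 10.8% beside 13.5% of all probe sets (5.79% higher, 7.75% lower) and 17.5% of the 6000 brightest. The dimmer SDHA probe set averaged 9.51 ± 0.37 (SD, n = 30) on the 30 arrays of largest actin difference and 9.89 ± 0.14 (SD, n = 30) on the 30 of smallest, with a slope of -0.13 (limma adjusted p 3.47e-07). NDUFA12 of complex I had a slope of -0.10 (limma adjusted p 9.75e-08) and fell 1.21-fold. NDUFV3, NDUFB4, ATP5D, ATP5G2, ATP5H and the dimmer SDHAF2 probe set were lower by 1.08 to 1.20-fold, and NDUFB3 was higher by 1.18-fold. NDUFS5 and COX6C had positive slopes that did not pass.

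The actin calls changed with the arrays used. Without the 13 arrays that stand apart there were again 9 calls, 5 higher and 4 lower, and 4 were shared with the full set. The same arrays called 9.48% of all probe sets, 3.69% higher and 5.79% lower. After quantile normalization 10 were called, 4 higher and 6 lower, with 6 shared, beside 13.1% of all probe sets (5.69% higher, 7.43% lower). A second pair of actin control probe sets called 22 members, 3 higher and 19 lower, where it called 22.8% of all probe sets, 11.3% higher and 11.5% lower. Of the 6000 brightest it called 29.1%, with 9.3% higher and 19.8% lower.

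The correlation of an array with the others called 57 of 83 members, 47 higher and 10 lower on the arrays that resembled the rest, beside 47.7% of all probe sets, 22.7% of them on the higher and 25% on the lower side. Of the 6000 brightest 54.1% were called (29.8% and 24.3%). Without the 13 arrays that stand apart, 30 members were called, 26 higher and 4 lower, beside 28.8% of all probe sets (13.5% and 15.2%) and 33% of the 6000 brightest (17.4% and 15.6%). The brighter NDUFA1 probe set, for a small membrane-arm subunit, averaged 10.76 ± 0.36 (SD, n = 30) on the 30 arrays of highest correlation and 10.15 ± 1.07 (SD, n = 30) on the 30 of lowest. Its slope of 0.30 (limma adjusted p 3.79e-07) was 0.151 without the arrays apart, where it did not pass (limma adjusted p 0.1). The dimmer SDHA probe set (0.18), SDHC (0.16), the NDUFS3 probe set of middle brightness (0.18) and NDUFA11 (0.13) were higher and remained called without those arrays.

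The members lower on the arrays most like the rest were the dimmer SDHB and ATP5S probe sets, NDUFA5, ATP5J, CYCS, both NDUFB3 probe sets, the brighter SDHAF2 and NDUFAF2 probe sets and NDUFC1. SDHB (slope -0.34, limma adjusted p 1.33e-11), ATP5S, NDUFA5 and ATP5J remained called without the 13 arrays. The calls of CYCS, NDUFB3, SDHAF2, NDUFAF2 and NDUFC1 ended there, with limma adjusted p between 0.0683 and 0.941.

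Members of the respiratory chain co-varied from pig to pig, within complexes and between them. Over pairs of probe sets of different genes, the mean Pearson r across 150 livers was 0.228 within complexes I to V (943 pairs) and 0.179 between them (1668 pairs). All pairs of probe sets with 1 symbol averaged 0.0135, and the 3756 of these that are among the 6000 brightest averaged 0.036. An r above 0.5 was reached by 25.7% of pairs within complexes and 21.8% between them, beside 5.38% among those 3756. These are descriptions, since all pairs share the same arrays.

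Complex IV was the most coherent, with a mean pairwise r of 0.307, followed by complex I with 0.243 and complex V with 0.144. Complex II averaged 0.0436, and the single pair of complex III, UQCR10 and UQCRB, stood at -0.217. The assembly and accessory factors averaged -0.0303. With 1 probe set per gene the mean r was 0.291 within complexes I to V and 0.263 between them. Complex II then averaged 0.22, without the dimmer SDHB and SDHA probe sets, complex V 0.255, complex I 0.292 and complex IV 0.436.

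In complex I NDUFA11, which sits in the membrane arm, followed the mean of the other 32 genes most closely (r = 0.882), and NDUFA8, NDUFS3, NDUFB11 and NDUFB10 were all above 0.82. NDUFA5 ran against them at -0.557, and NDUFB3 (-0.255), NDUFS1 (-0.245) and NDUFC1 (-0.0588) were also negative. NDUFAB1, the mitochondrial acyl carrier protein, had r = 0.202 but a rank correlation of 0.495, with 1 pig at 12.15 and the next at 11.21. NDUFA4, kept here by its symbol although it is now placed in complex IV, had r = 0.587 with the others of complex I.

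In complex II SDHC followed its partners best (0.461) and SDHA least (0.257). In complex IV COX5B, COX6A1 and COX7A2 stood at 0.818, 0.80 and 0.798, the muscle form COX7A1 at 0.758 and the heart form COX8H at 0.0971. In complex V ATP5G3, a c subunit gene, and ATP5L led with 0.792 and 0.775, while ATP5J (-0.38) and ATP5F1 (-0.0973), both of the peripheral stalk, ran against the rest. Among the assembly factors NDUFAF1 was highest at 0.0558 and NDUFAF3 lowest at -0.311. NDUFAF3 nevertheless followed the mean of all other members at 0.606.

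The first principal component of the 65 genes, 1 probe set each, carried 40.2% of their variance and split them in 54 genes of one sign and 11 of the other. The smaller set was NDUFA5, NDUFS1, NDUFB3 and NDUFC1 of complex I, SDHB of complex II, UQCRB of complex III, ATP5J and ATP5F1 of complex V, CYCS, ATP5S and NDUFAF2. It took members from complexes I, II, III and V and none of the 7 genes of complex IV. From complex II it held SDHB alone, whose r with the component was -0.0408, beside -0.699 for NDUFA5 and -0.575 for ATP5J. The component was correlated with the array median at -0.726, the GAPDH difference at -0.59 and the array correlation at 0.42. It was correlated with the actin difference at -0.0468, fat area at 0.0506 and drip loss at -0.169 (n = 150, descriptions without a test).

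**Figure D4:**
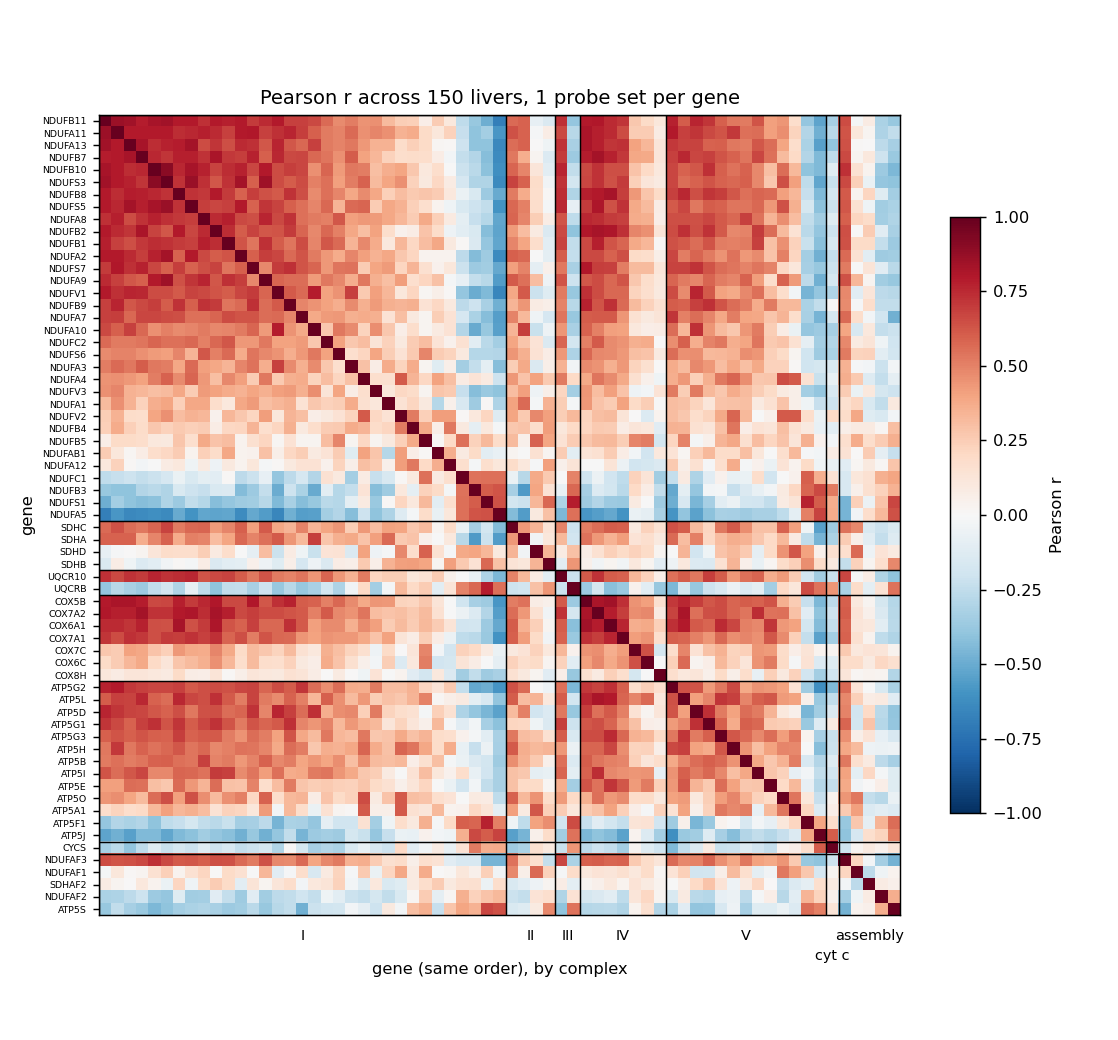
Pearson r across 150 livers between the 65 member genes, 1 probe set each, grouped by complex (black lines) and ordered within a complex by the first principal component. Red is positive and blue negative on a scale from -1 to 1. The upper part of complexes I, IV and V forms red blocks with each other, and NDUFA5, NDUFS1, NDUFB3, UQCRB, ATP5F1 and ATP5J form blue bands against them.

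Fewer pairs were opposed once the array measures were fitted. After a fit of each probe set on the actin difference, GAPDH difference, array median and array correlation, 0.636% of pairs within complexes had r under -0.3, where 7.74% had before. The mean r within complexes was then 0.207 and between them 0.161, and 10.9% and 9.41% of pairs were above 0.5. As deposited the means were 0.228 and 0.179, with 25.7% and 21.8% of pairs above 0.5. Both tails of the distribution were thus smaller in residuals. Pairs of all probe sets were not taken in residuals, so no background stands beside these values.

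The means of the complexes over their genes were joined as deposited and in the residuals. Complexes I and V had r = 0.88 as deposited and 0.838 in residuals, complexes IV and V 0.775 and 0.684, and complexes I and IV 0.781 and 0.655. Complex II was further from complex I (0.624 and 0.504), and complexes III and IV were the least joined pair (0.165 and 0.139). CYCS stood apart from the complexes as deposited, with r from -0.264 with complex IV to 0.22 with complex III.

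The mean of all 65 genes was correlated with the array median at -0.516, the GAPDH difference at -0.505 and the array correlation at 0.402, but with the actin difference at -0.0292. With fat area it was correlated at 0.045 and with drip loss at -0.124. Without the 13 arrays that stand apart the array median gave -0.468, fat area 0.0257 and drip loss -0.0732. Within blocks of 100 title numbers, the correlation with the array median was negative in 8 of 10 blocks, from -0.699 to 0.244. The correlation with fat area was negative in 4 of 10 blocks and that with drip loss in 5.

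The dimmer probe set of NDUFS6, a zinc-binding accessory subunit of the matrix arm of complex I, split the pigs at a gap. In 27 livers it lay between 4.09 and 4.84 (12 of them at the lowest value of the table) and in all others between 6.0 and 7.69. The gap of 1.16 log2 units had at least 10 pigs on each side, and one as wide occurred in 14 of 23999 probe sets. The brighter NDUFS6 probe set ran from 7.39 to 8.70 in one continuous spread, with medians of 8.12 below the gap and 8.15 above it.

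Over all 150 livers, which fall on both sides of the gap, the 2 NDUFS6 probe sets had r = 0.119 and rho = 0.248 (permutation p 0.145 and 0.00216, adjusted over 21 same-gene pairs 0.203 and 0.00504; r = 0.144 without the 2 most distant pigs). Above the gap r was 0.283 and rho 0.337 (all livers but these 27), and below it -0.192 and -0.0876 (n = 27). The plot of the pair showed a sloping band on either side of a dimmer level of 7, a bound set after the plot was seen, on the values compared, and marked by no wide gap (6.94 to 7.01). Between 6.0 and 6.94 r was 0.521 (n = 83) and between 7.01 and 7.69 it was 0.699 (n = 40), given as descriptions without a test.

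The dimmer NDUFS6 probe set did not pass the limma test on fat area, drip loss or any array measure, with adjusted p from 0.453 to 0.997.

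**Figure D5:**
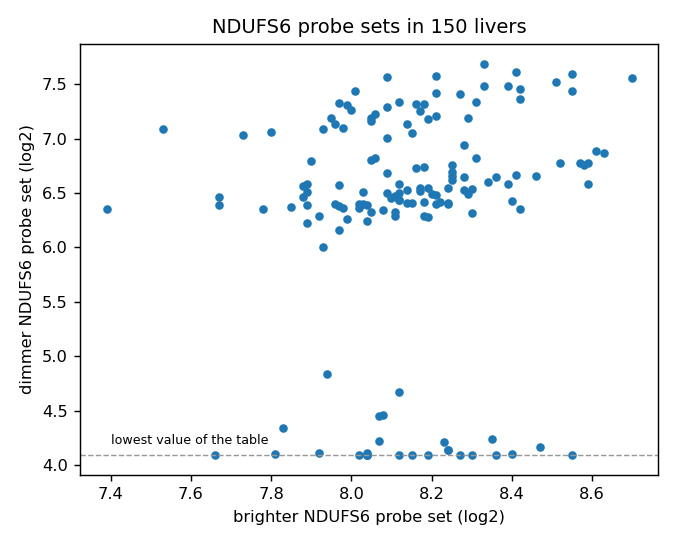
Level of the dimmer NDUFS6 probe set (vertical) against the brighter one (horizontal) in log2 units, 1 point for each of 150 livers. The dashed line is the lowest value of the table, 4.09. 27 points lie near that line, at 4.84 or lower, and all others lie at 6.0 or higher, with no wide gap among them.

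The brighter NDUFA1 probe set had the next largest SD of complex I, 0.707, with levels of 6.70, 10.57 and 12.12, while the other NDUFA1 probe set stood at 9.51, 10.09 and 10.58 (SD 0.179). The pair had r = 0.155 and rho = 0.0432 across 150 livers (permutation p 0.0594 and 0.599, adjusted over 21 same-gene pairs 0.096 and 0.629; r = 0.0377 without the 2 most distant pigs). Without the 13 arrays that stand apart the brighter one ran from 8.55 to 12.12, with an SD of 0.549.

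Probe sets of other genes ran together in some pairs and not in others. The NDUFB3 pair had r = 0.912, the brighter NDUFS3 pair 0.814, NDUFAF1 0.729, SDHA 0.685 and ATP5S 0.622, each with rho above 0.6 and a permutation p of 1e-05 (adjusted 2.63e-05), and r from 0.591 to 0.904 without the 2 most distant pigs. Pairs of a bright and a very dim probe set, as in ATP5I (r = -0.038, rho = -0.0459, permutation p 0.647 and 0.58), ATP5J (r = 0.0326, rho = 0.0107, permutation p 0.692 and 0.894) and NDUFS3 (r = -0.0806, rho = -0.0849, permutation p 0.328 and 0.302), gave no relation past the test. The SDHB pair had r = 0.0996 and rho = 0.195 (permutation p 0.223 and 0.0168, adjusted 0.293 and 0.0322). Without the 2 pigs farthest out r was 0.205.

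Companion genes of the mitochondrion were taken from lists by name. For the mitochondrial ribosomal proteins, which make the partner subunits inside the organelle, 58 genes were taken by symbol alone (MRPL or MRPS). Their mean was correlated with the member mean at 0.812 and with the array median at -0.422. On the array median 8 of these genes were higher and 37 lower (13.8% and 63.8%). The shares were 36.7% and 22.5% of all probe sets, and 37.1% and 34.4% of the 6000 brightest. MRPS36 (0.37), MRPS35 (0.24) and MRPL1 (0.33) rose, unlike most of the list, and MRPS24 (-0.18) fell. Of the listed assembly factors outside the rule 11 of 36 were measured, and their mean followed the members at 0.757. Among these 11, 3 were higher and 6 lower on the array median (27.3% and 54.5%). ECSIT and ACAD9, which build complex I, BCS1L, which inserts the iron-sulfur protein of complex III, and TACO1, a translation activator of a complex IV subunit, fell with the array median, with slopes of -0.13, -0.14, -0.16 and -0.13.

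Enzymes of the citrate cycle and pyruvate dehydrogenase, the source of the chain's NADH and succinate, were not joined to the members in this way. Their mean over 15 genes of 17 listed was correlated at -0.0755 with the member mean and at 0.54 with the array median. DLD (0.43), SUCLA2 (0.36) and SUCLG2 (0.29) rose with the array median and IDH3B (-0.13) fell, among 8 higher and 3 lower. The biogenesis regulators, 5 of 15 listed, had a mean correlated with the member mean at -0.406 and with the array median at 0.71, with 3 higher and 2 lower on the array median. TFAM, which packages mitochondrial DNA, rose by 0.42 per SD of the array median, the coactivator PPARGC1A by 0.38 and YY1 by 0.26, while TFB1M fell by 0.13.

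The 13 measured carriers and energy-exchange genes followed the members at 0.572, the 60 cytosolic ribosomal proteins at 0.462 and the 33 proteasome subunits at 0.356. None of the genes of these 7 lists was called for fat area or drip loss, where 0.125% and 0.0% of all probe sets were. The mitochondrially encoded subunits had no measured probe set under the listed symbols.

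Of 6700 non-member genes, those whose brightest probe set followed the member mean most closely were C2H19orf70 (r = 0.824), RNF181 (0.82), NAA38 (0.816), CIB1 (0.814) and SRA1 (0.798). LOC100525869, TRAPPC2L, EIF3I, PSMD8 and UROD came next, down to 0.775. All 10 were negatively correlated with the array median, between -0.534 and -0.724. In residuals on the 4 array measures 9 of these 10 were again among the highest 10, with C2H19orf70 at 0.756, and ECSIT took the place of PSMD8.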

How the data were processed

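Liver RNA of 150 pigs was measured on Affymetrix porcine arrays. The authors deposited log2 values per probe set; scale and lowest value were checked on the table, and how probes were summarised, corrected and normalized is not stated in the labels. GCOS 1.1.1 is named per the submitters' processing notes. All 23999 non-control probe sets were fitted with limma 3.58.1 (R 4.3.3; lmFit, eBayes with trend), a slope per SD of each trait or array measure, with Benjamini-Hochberg adjustment over all of them and a threshold of 0.05. Correlations between probe sets of 1 gene used 100000 permutations, two-sided. The members and companion lists were chosen with earlier results of these data known. Named genes were all called members up to 10 in a direction, otherwise the 5 steepest, and the 3 of smallest p where fewer than 3 were called; by SD and by correlation with their complex, the extremes of each complex; the tissue isoforms; the 10 most similar other genes; and up to 4 called genes of a companion list. Others, including NDUFS1 to NDUFC1 on the array median and the pairs of probe sets, were named after their values were seen. Gene symbols are those of the array annotation: 10069 probe sets carry 1 symbol, 198 several and 13732 none. On simulated data with 200 probe sets related at r = 0.3, the fit recovered 53.5% for fat area and 55.0% for drip loss (23999 probe sets each). The simulated probe sets varied independently of each other, unlike the measured ones. These shares therefore do not tell how often such a relation would be called among the members.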

Additional observations from a re-analysis of the deposited data

How the results depend on the processing

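No paired analysis was possible because all 150 livers form a single group and no numbers pair them. For fat area and drip loss no member was called under any of 11 alternatives each. Among the array measures, the array correlation called 30 members without the 13 arrays that stand apart (57 with them), the GAPDH difference 40 with the array median as covariate (66 without), and the second actin pair 22 (9 with the first). The single pair of complex III had r = -0.217 as deposited and 0.000771 in residuals on the array median alone. In residuals on the actin difference, array median and array correlation its r was -0.0146. The causes were not tested. Counts of members called on the array median lay within 1.5 times the main count under the 8 alternatives run, and the mean r within complexes ran from 0.207 to 0.291. Of the values of named members, 21 lost their call for the array correlation, 8 for the actin difference and 3 for the GAPDH difference under some alternative, and 5 gained one for the actin difference. The array median, GAPDH difference, second actin pair, title-number blocks, residual fits on the array median and on 4 measures, and the NDUFS6 bands were chosen after seeing the data. Dim probe sets near the lowest table value hold little range, so a fall there may not be measurable.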
